A study of Canis lupus familiaris with 18 samples.

Results

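The right atrium (RA) was compared with the right ventricle (RV) in dogs with late heart failure (HF), after 5 weeks of ventricular tachypacing. The comparison used 5 of the 18 arrays of the series, which were RA late HF replicates 1 and 2 and RV late HF replicates 1, 2 and 3. It covered 10988 genes, each represented by the probe set of highest mean signal among those annotated with that symbol alone. Control probe sets and the 40% of probe sets with the lowest mean signal were left out. The other groups were RA and RV from dogs with early HF, after 2 weeks of the same pacing, and RA and RV from control dogs, with 3 arrays each. Expression was measured on the Affymetrix Canine_2 array as log2 signal per probe set, so a difference of 1 is a change by a factor of 2. The paced dogs were adults of mixed breed (mongrel) or beagles, and no label says which array came from which breed. The protocol allows 2 to 3 weeks for the early and 5 to 6 weeks for the late stage. Replicates are called biological but no animal is identified, so a p-value here covers the spread of these samples, which may be technical. The labels give no genetic change, and they do not say whether RA and RV arrays of late HF came from the same dogs.

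The atrium and the ventricle carry different versions of the same contractile machinery. Atrial myocytes use their own myosin light chains, conduct through connexin 40 and store natriuretic peptides in secretory granules, whereas ventricular myocytes use ventricular light chains and the Iroquois transcription factors. Rapid ventricular pacing is an established canine model of dilated, congestive heart failure, in which the atria are known to become fibrotic.

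The library labelled RA late HF 3 went against its label for many chamber markers, though not for all. Its MYL2 signal was 14.17 and its MYL3 signal 13.89, against 14.26 and 13.89 in RV late HF 3. On a chamber scale set to 0 for the average RV control and to 1 for the average RA control, over the 1458 probe sets that differed between control chambers, it stood at 0.156. RA late HF 1 and 2 stood at 0.991 and 0.958, and the RV late HF arrays at 0.345, 0.244 and 0.266. The library was left out of the comparison after these chamber marker values had been seen, so the chamber markers below are a description of the remaining arrays and not independent support for their labels. With this library included, 7 probe sets differed between the chambers in place of 811. The genes that passed were then GJA5 (1.79, SE 0.17, adjusted p = 0.000372), AS3MT (0.84, SE 0.13, adjusted p = 0.0341) and NT5C3A (-1.06, SE 0.17, adjusted p = 0.0418). GJA5 read 8.74 in this library, near RA late HF 1 and 2 (9.07 and 9.14) and above the RV late HF arrays (6.98, 7.52 and 7.09). The mean of the 10 atrial markers tested was 8.24 in it, against 9.385 and 9.502 in RA late HF 1 and 2. In the RV late HF arrays this mean was 7.891, 8.112 and 8.096. MYL7, at 11.65, lay below all RV late HF arrays. The array medians lay between 5.65 and 5.75 over all 18 arrays. The 3' minus 5' signal of the control transcript EF1A was 9.54 and 9.24 in the RA arrays, against 8.86, 8.86 and 8.51 in the RV arrays. This value moved with the chamber, as it did in controls, and EEF1A1, the gene of EF1A, was itself higher in RA (1.05, SE 0.18, adjusted p = 0.00435). The same value of GAPDH was 1.51 and 1.29 in the RA arrays, against 1.32, 1.47 and 1.28 in the RV arrays, and overlapped. The part of RNA quality in the results was not tested.

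In late HF, 218 genes were higher in RA (1.98% of 10988) and 101 were lower (0.919%), together 2.9%, at an adjusted p under 0.05 by limma, with n = 2 RA and n = 3 RV arrays. The genes higher in RA had a median difference of 0.84 and the lower ones of -0.77, while the median over all genes was -0.02. The RA and RV arrays did not overlap for any of these 319 genes, but the same held for 34.9% of all genes tested. The difference was over 1 for 77 of the higher and below -1 for 34 of the lower genes. All 319 had the same sign with the library labelled RA late HF 3 included, while 2 higher and 1 lower gene kept their call. The shared sign was nearly fixed in advance, since RA 1 and RA 2 lay beyond all RV arrays for these genes. The library labelled RA late HF 3 lay within the RV range or beyond it, away from RA, for 165 of the 218 higher and 70 of the 101 lower genes. These genes were called with it left out, and the share over all genes is not given.

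Most atrial myocyte genes tested were higher in RA. Of 10 listed atrial markers tested, 6 were higher (against 1.98% of all genes) and 0 lower, namely GJA5, DKK3, PAM, MYL7, NR2F2 and MYL4, with a median over the 10 of 1.02. DKK3, a secreted protein of the Dickkopf family of Wnt modulators, had log2 signals of 12.05 and 12.61 in the RA arrays, against 7.77, 8.53 and 8.27 in the RV arrays, a difference of 4.14 ± 0.42 (SE, adjusted p = 4.66e-05). For GJA5, the gap junction protein connexin 40, the signals were 9.07 and 9.14 in the RA arrays, against 6.98, 7.52 and 7.09 in the RV arrays, a difference of 1.91 ± 0.19 (SE, adjusted p = 3.75e-05). The RA arrays lay close together for GJA5, well above the highest RV array. PAM, which amidates peptide hormones and is a main membrane protein of atrial granules, had 12.50 and 13.36 in the RA arrays, against 11.32, 10.62 and 10.93 in the RV arrays (1.97, SE 0.20, adjusted p = 4.83e-05). The atrial regulatory light chain MYL7 had 13.72 and 13.99 in the RA arrays, against 13.00, 12.58 and 12.86 in the RV arrays (1.04, SE 0.16, adjusted p = 0.00198). The atrial essential light chain MYL4 showed 13.89 and 14.05 in the RA arrays, against 8.69, 11.79 and 11.14 in the RV arrays (3.43, SE 0.85, adjusted p = 0.0401). The RV arrays were spread widely for MYL4, with RV 1 far below RV 2 and RV 3. NR2F2, a nuclear receptor known in mice to set atrial identity, differed by 1.00 ± 0.21 (SE, adjusted p = 0.0161). KCNA5, the atrial potassium channel of the ultrarapid current, differed by 0.18, SE 0.12, and BMP10 by 0.10, SE 0.36, neither of which passed. GJA5, DKK3, PAM and MYL7 passed with any 1 of the 5 arrays left out, and calls were lost for NR2F2 without RA 1, RV 2 or RV 3 (adjusted p up to 0.381) and MYL4 without RA 1, RA 2, RV 1 or RV 3 (adjusted p up to 0.316).

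**Figure D1:**
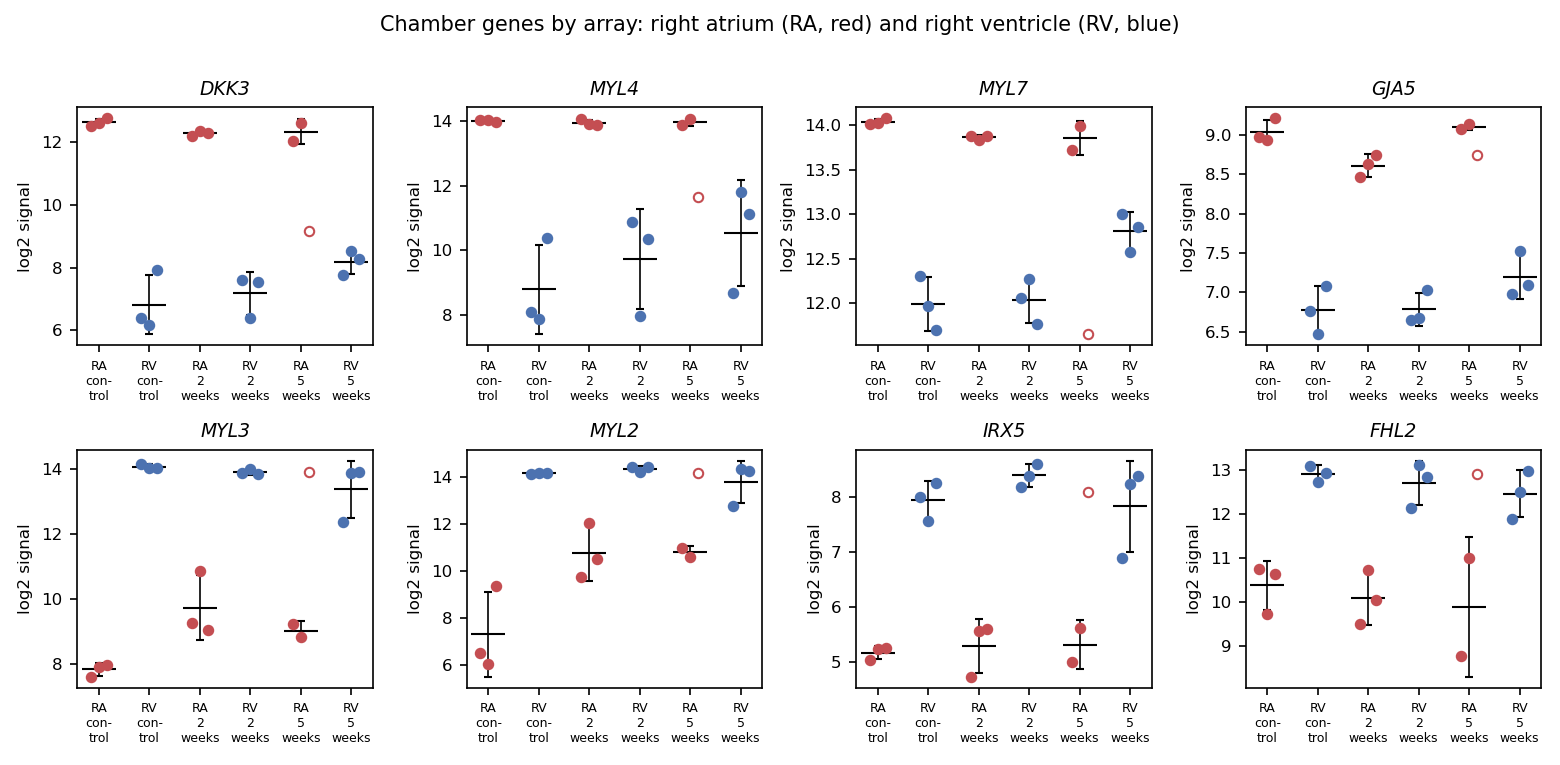
Log2 signal (vertical axes, not starting at 0) of 8 chamber genes in each array of RA (red) and RV (blue) from controls, after 2 weeks and after 5 weeks of pacing. Points are arrays, the horizontal mark and bar are the mean and SD, and the hollow point is the library labelled RA late HF 3, which is not in the mean. At 5 weeks the 2 filled RA points lie above all RV points for DKK3, MYL4, MYL7 and GJA5 and below them for MYL3, MYL2, IRX5 and FHL2. The hollow point lies at RV levels for MYL3, MYL2, MYL4, IRX5 and FHL2 and below them for MYL7. It lies above the RV points for DKK3 (9.17) and near the RA points for GJA5 (8.74).

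Several genes of the ventricular myocyte were lower in RA. Of 14 listed ventricular markers tested, 6 were lower (against 0.919% of all genes) and 0 higher, namely MYL3, IRX5, IRX3, TNNI3, FHL2 and MYL2. All 14 had a difference below 0, while 47% of all genes lay above 0. MYL3, the ventricular essential light chain, had log2 signals of 9.22 and 8.81 in the RA arrays, against 12.35, 13.85 and 13.89 in the RV arrays, a difference of -4.35 ± 0.44 (SE, adjusted p = 4.83e-05). MYL2, the ventricular regulatory light chain, had 10.99 and 10.59 in the RA arrays, against 12.76, 14.35 and 14.26 in the RV arrays, a difference of -3.0 ± 0.76 (SE, adjusted p = 0.0426). RV 1 was below RV 2 and RV 3 for both light chains, and still above both RA arrays. FHL2, a LIM protein of the sarcomere, had 8.77 and 11.01 in the RA arrays, against 11.90, 12.51 and 12.97 in the RV arrays (-2.57, SE 0.52, adjusted p = 0.0131). RA 1 and RA 2 differed from each other by more than 2 for FHL2. Cardiac troponin I, TNNI3, differed by -0.42 ± 0.08 (SE, adjusted p = 0.013). MYL3, IRX5 and IRX3 passed with any 1 array left out, and calls were lost for MYL2 without RA 1, RA 2, RV 2 or RV 3 (adjusted p up to 0.289), FHL2 without RA 1 or RV 3 (adjusted p up to 0.355) and TNNI3 without RA 1 (adjusted p = 0.329).

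Among 23 cardiac transcription factors tested, 1 was higher in RA (NR2F2, against 1.98% of all genes) and 3 were lower (against 0.919%). The lower ones were the Iroquois factors IRX5 and IRX3 and the homeobox factor MEIS2. IRX5, which in mice sets up the repolarization gradient across the ventricular wall, had 4.99 and 5.62 in the RA arrays, against 6.88, 8.24 and 8.38 in the RV arrays (-2.53, SE 0.36, adjusted p = 0.000942). IRX3, known in mice for its part in fast ventricular conduction, had 7.44 and 7.67 in the RA arrays, against 8.34, 8.52 and 8.41 in the RV arrays (-0.87, SE 0.13, adjusted p = 0.00123). MEIS2 had 7.39 and 7.29 in the RA arrays, against 8.29, 8.79 and 9.04 in the RV arrays (-1.37, SE 0.22, adjusted p = 0.00257). The RA arrays were lower than every RV array for each of the 3 genes, as for 17.4% of all genes tested. RV 1 was the lowest RV array for all 3. A second IRX5 probe set differed by -0.10. IRX4, known as a ventricular factor, differed by -0.06, SE 0.12, with signals near background in both chambers. IRX5, IRX3 and MEIS2 passed with any 1 array left out.

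Of the natriuretic peptide and fetal stress genes, 3 of 23 tested were higher in RA (against 1.98% of all genes) and 0 lower, with a median of 0.12. NPPB, which encodes B-type natriuretic peptide, a hormone that lowers blood volume and pressure, had 12.86 and 12.47 in the RA arrays, against 7.25, 8.95 and 7.46 in the RV arrays, a difference of 4.78 ± 1.03 (SE, adjusted p = 0.0196). Both RA arrays were more than 3 above the highest RV array, and the library labelled RA late HF 3, at 7.14, lay below all RV arrays. NPR3, the receptor that clears natriuretic peptides, had 8.02 and 8.10 in the RA arrays, against 6.69, 7.32 and 6.70 in the RV arrays (1.16, SE 0.22, adjusted p = 0.0102). NPR3 is also 1 of 10 listed endocardial markers, of which 5 were tested. Of these, 1 was higher (NPR3, against 1.98% of all genes) and 4 were above 0 (against 47% of all genes). Their mean level was 7.76 and 7.07 in the RA arrays, against 6.17, 6.80 and 6.68 in the RV arrays, and the part of endocardial cells in the NPR3 result was not tested. UCHL1, a deubiquitinase of neurons that also serves as a stress gene, had 10.26 and 8.93 in the RA arrays, against 7.51, 7.82 and 7.95 in the RV arrays (1.83, SE 0.43, adjusted p = 0.029), with RA 1 well above RA 2. Skeletal actin, ACTA1, differed by -0.26, SE 0.17 and did not pass. Calls were lost for NPPB without RA 1, RV 1 or RV 3 (adjusted p up to 0.246), NPR3 without RA 1 or RV 3 (adjusted p up to 0.1) and UCHL1 without RA 1, RV 1, RV 2 or RV 3 (adjusted p up to 0.549).

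Signalling and channel genes stood out singly within their lists. CAMK1D, a calcium/calmodulin-dependent kinase, was higher in RA, with 7.22 and 8.05 in the RA arrays, against 5.44, 5.07 and 5.49 in the RV arrays (2.30, SE 0.29, adjusted p = 0.000277). GNAO1, the alpha subunit of the inhibitory G protein Go, had 8.51 and 9.25 in the RA arrays, against 6.88, 6.31 and 6.49 in the RV arrays (2.32, SE 0.23, adjusted p = 3.75e-05). CACNA2D3, an auxiliary subunit of voltage-gated calcium channels, had 7.84 and 7.75 in the RA arrays, against 6.09, 5.42 and 5.85 in the RV arrays (2.01, SE 0.22, adjusted p = 9.2e-05). In each of these, both RA arrays were above every RV array by more than 1, while 17.4% of all genes were above by any margin. EDNRA, the endothelin A receptor, was higher by 0.73 ± 0.14 (SE, adjusted p = 0.00854), and a second EDNRA probe set differed by 0.15. FGF13, an intracellular fibroblast growth factor that binds sodium channels, was lower in RA, with 7.37 and 6.85 in the RA arrays, against 8.07, 8.83 and 8.79 in the RV arrays (-1.45, SE 0.25, adjusted p = 0.0037), and a second FGF13 probe set differed by -0.35. Also lower were KCNJ8, the Kir6.1 subunit of vascular and cardiac ATP-sensitive potassium channels (-0.97, SE 0.25, adjusted p = 0.0453), and PDE3A, which breaks down cyclic AMP (-0.73, SE 0.18, adjusted p = 0.0349). A second PDE3A probe set differed by -0.07. PPP1R1A, an inhibitor of protein phosphatase 1, was lower too (-0.70, SE 0.19, adjusted p = 0.0489). CAMK1D, GNAO1, CACNA2D3, EDNRA and FGF13 passed with any 1 array left out, and calls were lost for KCNJ8 without RA 1, RV 2 or RV 3 (adjusted p up to 0.472), PDE3A without RA 1, RV 1, RV 2 or RV 3 (adjusted p up to 0.508) and PPP1R1A without RA 1, RA 2, RV 1, RV 2 or RV 3 (adjusted p up to 0.331).

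Most genes of repolarization and calcium cycling did not pass, as was true of most genes tested (2.9% of all genes passed). Of 16 potassium channel genes tested, KCNJ8 was the 1 lower gene (against 0.919% of all genes) and 0 were higher (against 1.98%). KCND3, which carries the transient outward current, differed by -0.31, SE 0.17, KCNH2 by -0.32, SE 0.12 and KCNQ1 by -0.03, SE 0.12. KCNIP2, the partner of KCND3, had 8.88 and 10.21 in the RA arrays, against 10.32, 9.11 and 9.17 in the RV arrays, so that its arrays overlapped (0.01, SE 0.46), and its probe sets disagreed in sign. In calcium handling, 1 of 23 was higher (CAMK1D, against 1.98% of all genes) and 1 lower (PPP1R1A, against 0.919%). RYR2, the calcium release channel, differed by -0.64, SE 0.21, adjusted p = 0.105, ATP2A2, the calcium pump of the sarcoplasmic reticulum, by -0.12, SE 0.16, its inhibitor PLN by -0.36, SE 0.14 and SLC8A1, the sodium-calcium exchanger, by -0.25, SE 0.13. The L-type channel gene CACNA1C differed by -0.27, SE 0.13, connexin 43 (GJA1) by -0.20, SE 0.12 and the beta-1 adrenergic receptor ADRB1 by 0.02, SE 0.10. A difference that did not pass was not shown to be absent, and with 2 RA arrays the 95% interval for RYR2 ran from -1.09 to -0.19 and that for KCNIP2 from -0.95 to 0.98.

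Some myeloid and antigen presentation genes were higher in RA. CLEC12A, an inhibitory lectin receptor of myeloid cells, had log2 signals of 9.01 and 8.42 in the RA arrays, against 6.34, 6.48 and 6.29 in the RV arrays, a difference of 2.35 ± 0.36 (SE, adjusted p = 0.00164). Of 15 genes of MHC class II and antigen presentation tested, 4 were higher (against 1.98% of all genes) and 0 lower, with a median of 0.51, and 13 of 15 were above 0 (against 47% of all genes). The class II chain DLA-DQB1 had 9.07 and 8.31 in the RA arrays, against 7.32, 6.74 and 6.65 in the RV arrays (1.79, SE 0.35, adjusted p = 0.0105), and DLA-DQA1 had 10.18 and 9.03 in the RA arrays, against 8.08, 7.83 and 6.86 in the RV arrays (2.02, SE 0.44, adjusted p = 0.021). DLA-DRA had 11.38 and 10.67 in the RA arrays, against 9.88, 9.33 and 8.83 in the RV arrays (1.68, SE 0.42, adjusted p = 0.0402), and CTSS, the protease cathepsin S that trims the invariant chain, had 11.67 and 10.98 in the RA arrays, against 9.87, 10.28 and 10.25 in the RV arrays (1.19, SE 0.30, adjusted p = 0.0412). RA 1 was the highest array for all 5 genes, and both RA arrays were above all RV arrays, as for 17.4% of all genes tested. Another DLA-DQA1 probe set differed by 0.05, and another of DLA-DRA by 1.305 without passing. Some class II genes vary in sequence between dogs, and how far this moves their signals was not tested.

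Cell type markers were set beside these genes. Of 16 macrophage and myeloid markers tested, CTSS, also counted in the class II list, was the 1 that passed (against 2.9% of all genes). Of the 16, 14 were above 0 (against 47% of all genes). The mean level of the list was 8.20 and 7.75 in the RA arrays, against 7.60, 7.41 and 7.48 in the RV arrays. Of 7 lymphocyte markers, 0 passed, with a mean level of 6.47 and 6.64 in RA, against 6.69, 6.60 and 6.62 in RV. In tissue RNA, more cells of a type and more RNA per cell cannot be told apart, and the part of these cells in the results was not tested. Calls were lost for CLEC12A without RA 1 (adjusted p = 0.0574), DLA-DQB1 without RA 1 or RV 3 (adjusted p up to 0.268), DLA-DQA1 without RA 1 or RV 3 (adjusted p up to 0.44), DLA-DRA without RA 1, RV 2 or RV 3 (adjusted p up to 0.515) and CTSS without RA 1, RV 1, RV 2 or RV 3 (adjusted p up to 0.577), and 0 of the 15 class II genes passed without RA 1.

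**Figure D2:**
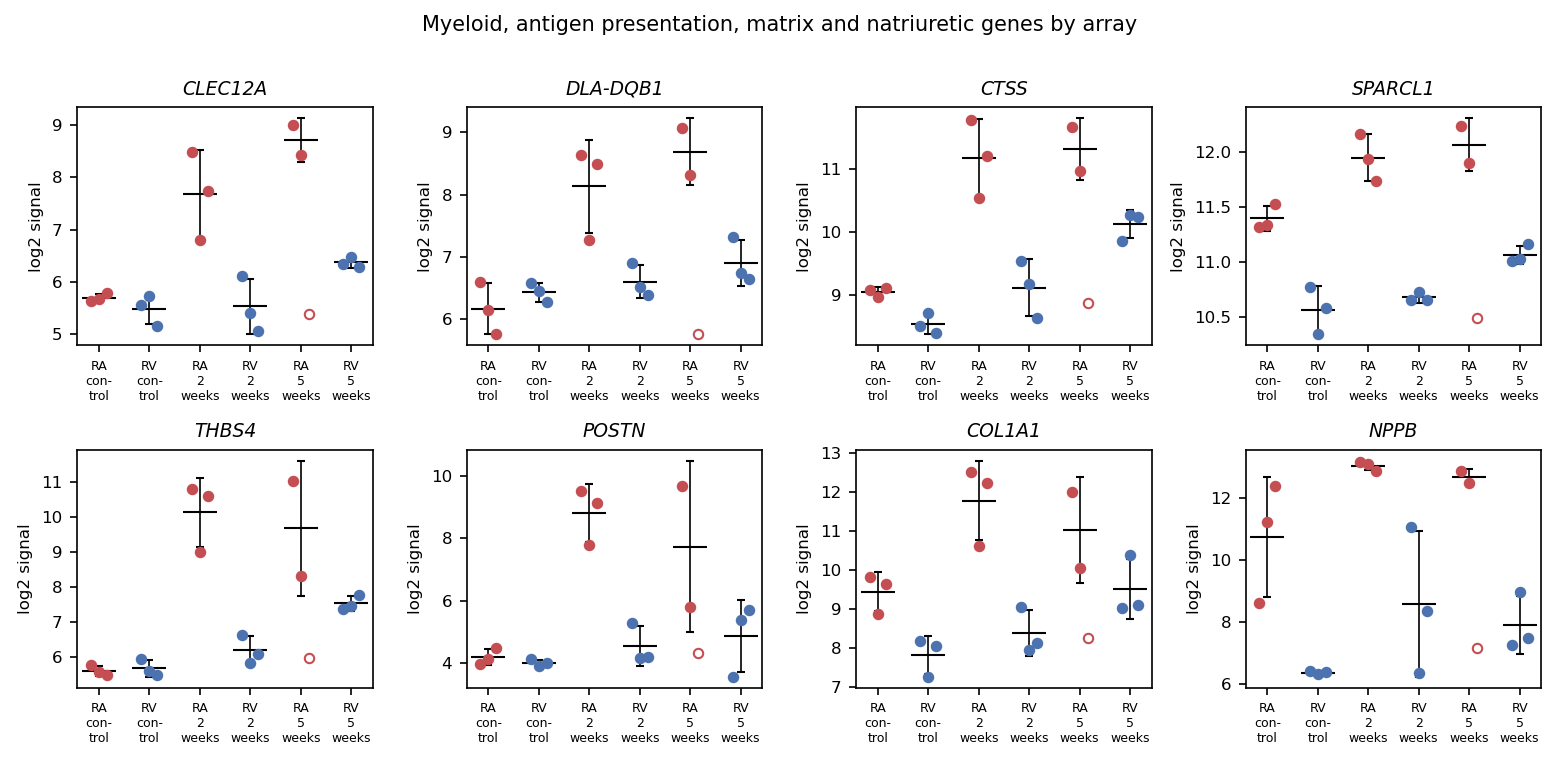
Log2 signal (vertical axes, not starting at 0) of 8 myeloid, antigen presentation, matrix and natriuretic genes in each array of RA (red) and RV (blue) from controls, after 2 weeks and after 5 weeks of pacing. Points are arrays, the horizontal mark and bar are the mean and SD, and the hollow point is the library labelled RA late HF 3, which is not in the mean. At 5 weeks the 2 filled RA points are close for CLEC12A and SPARCL1 and far apart for THBS4 (11.04 and 8.31) and POSTN (9.68 and 5.80).

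Some matrix genes were higher in RA, and RA 1 had the highest matrix level of the 5 arrays. Of 49 genes of fibrillar collagen and matrix tested, 5 were higher (against 1.98% of all genes) and 0 lower, with a median of 0.53 and 36 of 49 above 0 (against 47% of all genes). The median was 0.19 without RA 1 and 0.81 without RA 2. The mean level of the list was 8.93 and 8.27 in the RA arrays, against 8.02, 8.03 and 8.05 in the RV arrays. SPARCL1, a matricellular protein of the SPARC family, had 12.24 and 11.90 in the RA arrays, against 11.01, 11.03 and 11.16 in the RV arrays (1.00, SE 0.14, adjusted p = 0.00102). SPARC itself had 12.72 and 12.60 in the RA arrays, against 11.87, 11.91 and 11.60 in the RV arrays (0.87, SE 0.18, adjusted p = 0.0145). The others were the fibulins EFEMP2 (0.89, SE 0.17, adjusted p = 0.00963) and EFEMP1 (1.37, SE 0.34, adjusted p = 0.0394) and the leucine-rich proteoglycan OGN (1.27, SE 0.27, adjusted p = 0.0175). EPYC, another small leucine-rich proteoglycan outside the list, had 10.27 and 8.79 in the RA arrays, against 6.31, 6.39 and 6.06 in the RV arrays, a difference of 3.28 ± 0.44 (SE, adjusted p = 0.000521). The large fibrosis genes did not pass, with COL1A1 at 1.52, SE 0.60, adjusted p = 0.159, COL3A1 at 1.30, SE 0.39, adjusted p = 0.0739, POSTN at 2.86, SE 0.82, adjusted p = 0.0661 and THBS4 at 2.15, SE 0.57, adjusted p = 0.0519. COL1A1 had 11.99 and 10.06 in the RA arrays, against 9.02, 10.39 and 9.11 in the RV arrays, so that RA 2 lay within the RV range. POSTN had 9.68 and 5.80 in the RA arrays, against 3.57, 5.38 and 5.70 in the RV arrays, with RA 2 just above the highest RV array. Without RA 1, the matrix list had 1 higher gene, and without RA 2 it had 20 higher and 1 lower.

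Fibroblast markers were highest in the same array. Of 18 tested, SMOC2 (1.04, SE 0.17, adjusted p = 0.00296) and DPT (0.90, SE 0.21, adjusted p = 0.0284) were higher (against 1.98% of all genes) and 0 lower. The mean level of the list was 9.76 and 9.15 in the RA arrays, against 8.85, 8.92 and 8.82 in the RV arrays. Its part in the matrix result was not tested. Of 19 matrix proteases and inhibitors, 3 were higher (against 1.98% of all genes), namely PRSS23, CTSS and TIMP2 (0.46, SE 0.12, adjusted p = 0.0463). The serine protease PRSS23 had 11.02 and 10.79 in the RA arrays, against 8.47, 7.46 and 7.43 in the RV arrays, a difference of 3.12 ± 0.35 (SE, adjusted p = 0.0001). Of 25 genes of TGF-beta and Wnt signalling, DKK3 and the receptor TGFBR2 (0.66, SE 0.17, adjusted p = 0.0421) were higher (2 of 25, against 1.98% of all genes). Other TGFBR2 probe sets differed by 0.17, 0.47 and 0.75, of which only the last passed. SPARCL1, EPYC and PRSS23 passed with any 1 array left out, and calls were lost for SPARC without RA 1 or RV 3 (adjusted p up to 0.216), EFEMP2 without RA 1 or RV 3 (adjusted p up to 0.244), EFEMP1 without RA 1, RV 1, RV 2 or RV 3 (adjusted p up to 0.677), OGN without RA 1 or RV 3 (adjusted p up to 0.428), SMOC2 without RA 1 (adjusted p = 0.0957), DPT without RA 1, RV 2 or RV 3 (adjusted p up to 0.577), TIMP2 without RA 1, RV 1, RV 2 or RV 3 (adjusted p up to 0.677) and TGFBR2 without RA 1, RV 1, RV 2 or RV 3 (adjusted p up to 0.489).

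Differences of energy metabolism genes lay mostly below 0, and few genes passed alone. Of 40 genes of fatty acid uptake and oxidation tested, 3 were lower (against 0.919% of all genes) and 0 higher, with a median of -0.34 and 5 above 0 (against 47% of all genes). The lower ones were UCP3, a mitochondrial carrier induced by fatty acids, BDH1, which handles ketone bodies, and ACAT1, the mitochondrial thiolase. UCP3 had 5.37 and 5.76 in the RA arrays, against 7.17, 9.09 and 7.99 in the RV arrays (-2.52, SE 0.62, adjusted p = 0.0384), with RV 2 the highest array. BDH1 had 7.23 and 7.56 in the RA arrays, against 7.86, 8.41 and 8.54 in the RV arrays (-0.88, SE 0.18, adjusted p = 0.0169), and ACAT1 had 10.33 and 10.48 in the RA arrays, against 10.83, 10.96 and 11.13 in the RV arrays (-0.57, SE 0.12, adjusted p = 0.0188). Of 53 subunits of respiratory complexes I to V, UQCRC1 of complex III (-0.55, SE 0.13, adjusted p = 0.0284) and NDUFA9 of complex I (-0.50, SE 0.13, adjusted p = 0.0492) were lower (2 of 53, against 0.919% of all genes). The median of this list was -0.20 and 4 of 53 were above 0 (against 47% of all genes). Of 37 genes of glycolysis, creatine and the citric acid cycle, SUCLA2 (-0.65, SE 0.14, adjusted p = 0.0196) and the muscle enolase ENO3 (-0.68, SE 0.16, adjusted p = 0.0334) were lower (2 of 37, against 0.919% of all genes), with a median of -0.23. The mean level of the respiratory list was 11.76 and 11.80 in the RA arrays, against 11.94, 11.98 and 11.98 in the RV arrays, so the arrays did not overlap. The same held for 34.9% of single genes tested. Calls were lost for UCP3 without RA 1, RV 2 or RV 3 (adjusted p up to 0.389), BDH1 without RA 1, RV 2 or RV 3 (adjusted p up to 0.328), ACAT1 without RA 1 or RV 3 (adjusted p up to 0.292), UQCRC1 without RA 1, RV 1 or RV 3 (adjusted p up to 0.528), NDUFA9 without RA 1, RA 2, RV 1, RV 2 or RV 3 (adjusted p up to 0.432), SUCLA2 without RA 1, RA 2, RV 2 or RV 3 (adjusted p up to 0.0941) and ENO3 without RA 1, RA 2, RV 2 or RV 3 (adjusted p up to 0.134).

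The 50 cytosolic ribosomal protein genes tested were mostly above 0 in RA, with 48 of 50 positive (against 47% of all genes) and a median of 0.26, and 0 passed. Their mean level was 12.02 and 11.73 in the RA arrays, against 11.67, 11.70 and 11.50 in the RV arrays, so RA 2 was 0.03 above the highest RV array. Without RA 2, 19 of the 50 were higher, and without RA 1, 0 were. Of 17 vascular endothelial markers 0 passed (median 0.11). Of 17 adipocyte markers 0 passed (median -0.23), with a mean level of 7.51 and 7.99 in the RA arrays, against 8.38, 7.60 and 8.02 in the RV arrays. No gene passed among 24 cytokine and chemokine genes or 20 interferon response genes. Over all genes tested, 1.98% were higher and 0.919% lower, so lists of this size often hold no gene that passed. Complement gave 2 higher genes of 19, the inhibitor CFI (1.68, SE 0.35, adjusted p = 0.0156) and the membrane inhibitor CD59 (0.81, SE 0.20, adjusted p = 0.0385), and these calls were lost for CFI without RA 1 or RV 1 (adjusted p up to 0.367) and CD59 without RA 1, RV 1, RV 2 or RV 3 (adjusted p up to 0.639).

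**Figure D3:**
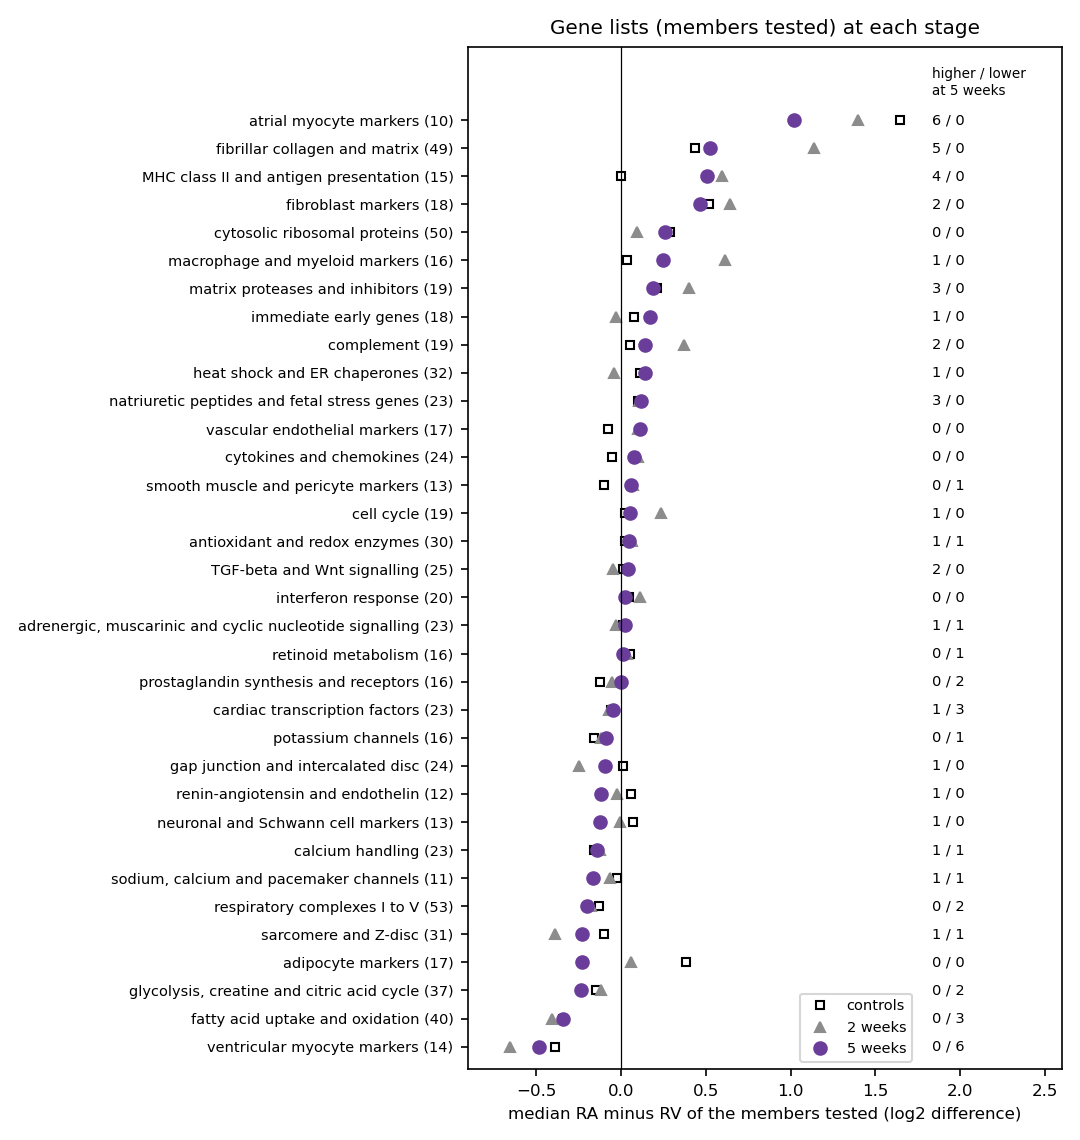
Median log2 difference, RA minus RV, of the members tested of each gene list with 10 or more members (number tested in brackets), in controls (open squares), after 2 weeks (grey triangles) and after 5 weeks of pacing (purple circles). The figures at the right count the members higher and lower in RA at 5 weeks. Atrial markers stand at the top (1.02 at 5 weeks) and ventricular markers at the bottom (-0.48), and the class II list lies at 0.51 at 5 weeks and 0.00 in controls.

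Further genes led the comparison by size. GNA12, the alpha subunit of G12, had 9.25 and 8.47 in the RA arrays, against 4.57, 4.13 and 3.51 in the RV arrays, a difference of 4.79 ± 1.03 (SE, adjusted p = 0.0197), with the RV arrays near background, and a second GNA12 probe set differed by 0.11. HSD17B13, a lipid droplet enzyme of the hydroxysteroid dehydrogenase family, had 9.30 and 8.0 in the RA arrays, against 4.46, 5.43 and 5.05 in the RV arrays (3.67, SE 0.77, adjusted p = 0.0167). Its mean in RV lay near background. RABGAP1L, a GTPase-activating protein for Rab proteins, had 11.17 and 11.50 in the RA arrays, against 9.70, 8.34 and 8.56 in the RV arrays (2.47, SE 0.29, adjusted p = 0.000154). TMEM178A had a difference of 2.10, SE 0.32, adjusted p = 0.00173. On the lower side, PLPPR5, a phospholipid phosphatase-related membrane protein of neurons, had 3.63 and 5.22 in the RA arrays, against 6.37, 7.60 and 7.31 in the RV arrays (-2.67, SE 0.47, adjusted p = 0.00556), with RA near background. ECRG4, a secreted peptide precursor, had 6.08 and 5.43 in the RA arrays, against 7.34, 8.03 and 7.28 in the RV arrays (-1.79, SE 0.32, adjusted p = 0.00545). LMO3 (-1.88, SE 0.41, adjusted p = 0.0209), a LIM-only transcription cofactor, RIPOR2 (-1.68, SE 0.29, adjusted p = 0.00435), a RhoA inhibitor, and PLA2G7 (-1.58, SE 0.35, adjusted p = 0.0216), the lipoprotein-associated phospholipase, were lower as well. FHIT (-1.86, SE 0.43, adjusted p = 0.029) and YLPM1 (-1.86, SE 0.32, adjusted p = 0.00444) were lower by their main probe set, while other probe sets differed by 0.05 and by -1.18 (adjusted p = 0.024) for FHIT and by -0.23 for YLPM1. RABGAP1L and ECRG4 passed with any 1 array left out, and calls were lost for GNA12 without RA 1, RV 2 or RV 3 (adjusted p up to 0.28), HSD17B13 without RA 1, RV 1 or RV 3 (adjusted p up to 0.323), TMEM178A without RA 1 (adjusted p = 0.0688), PLPPR5 without RA 1 (adjusted p = 0.2), LMO3 without RA 1, RA 2, RV 2 or RV 3 (adjusted p up to 0.0685), RIPOR2 without RA 1 (adjusted p = 0.0941), PLA2G7 without RA 2, RV 2 or RV 3 (adjusted p up to 0.0953), FHIT without RA 1, RV 1 or RV 3 (adjusted p up to 0.48) and YLPM1 without RA 1 (adjusted p = 0.0551).

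The calls depended on single arrays. RA 1 was further from RV than RA 2 for 177 of the 218 higher and 72 of the 101 lower genes. Of the 811 probe sets that passed, 564 were higher and 247 lower in RA. The count was 145 without RA 1, 3161 without RA 2, 567 without RV 1, 414 without RV 2 and 292 without RV 3. With an RA array left out, the 1 remaining is assumed to vary like the other groups. Without RA 1, 184 of the 218 higher and 81 of the 101 lower genes lost their call, against 15 and 13 without RA 2. The calls of 30 higher and 18 lower genes held in each of the 5 fits.

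**Figure D4:**
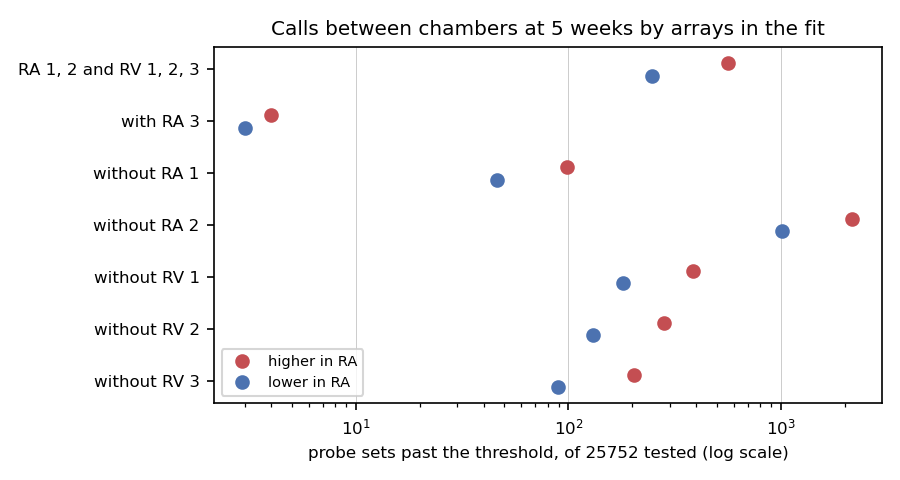
Number of probe sets past the threshold between the chambers at 5 weeks (horizontal log axis) by the arrays in the fit, higher in RA (red) and lower in RA (blue). The top line is the comparison reported, with 564 and 247. The count is lowest with the library labelled RA late HF 3 added (7 in all) and highest without RA 2 (3161 in all).

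The chamber difference in late HF was then set beside that in controls, to ask whether pacing changed it. No gene passed for the difference between them, by limma, at an adjusted p under 0.05 (0% of genes, with 755 genes or 6.87% at an unadjusted p under 0.05). In controls, 358 genes were higher in RA (3.26%) and 232 lower (2.11%), together 5.37%. Of the 218 genes higher in late HF, 118 (54.1%) were also higher in controls, which is 33% of the control genes. Of the 101 lower genes, 64 (63.4%) were also lower in controls, which is 27.6% of the control genes. None passed in the opposite direction, and 207 of the 218 and 92 of the 101 had the same sign. Of all genes tested, 44.6% were above 0 and 55.1% below 0 in controls. The 2 sets of calls share 1 estimate of the spread per gene, so they are not independent. Across the 10988 genes, the 2 differences correlated at 0.69 (Pearson) and 0.48 (Spearman), as a description of genes that are not independent.

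**Figure D5:**
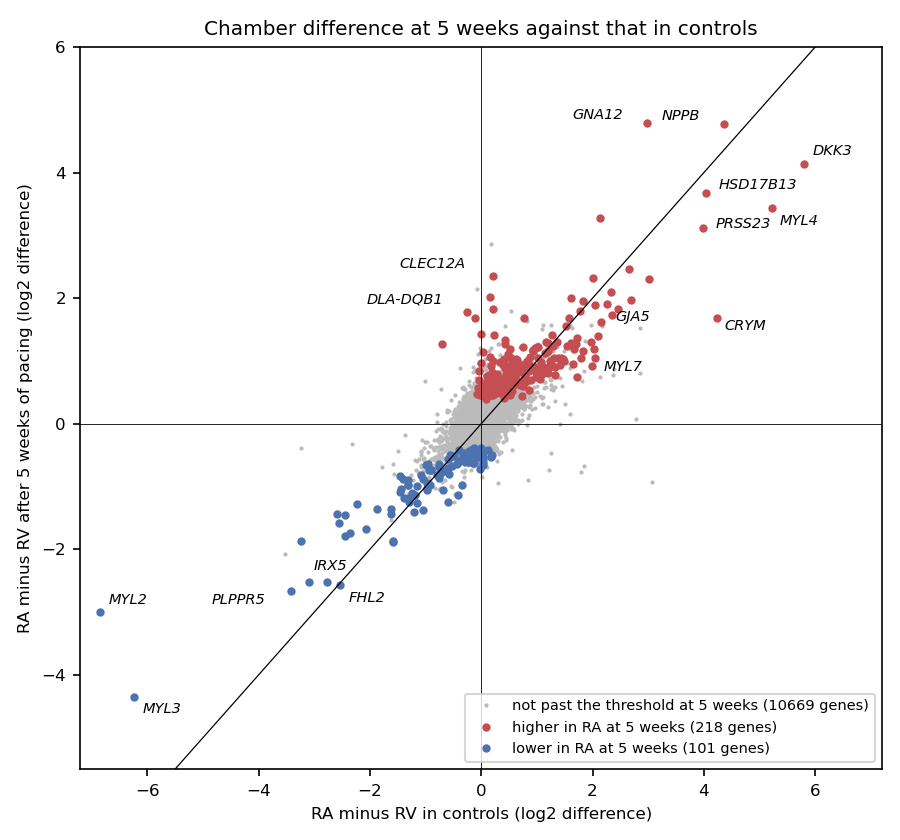
Log2 difference, RA minus RV, of each of 10988 genes after 5 weeks of pacing (vertical axis) against that in controls (horizontal axis). Red and blue points are the 218 genes higher and the 101 lower in RA at 5 weeks, grey points did not pass, and the diagonal marks equal differences. MYL2 and MYL3 lie far from the diagonal, nearer 0 at 5 weeks (-3.0 and -4.35) than in controls (-6.84 and -6.24), and CLEC12A and DLA-DQB1 lie near 0 in controls (0.22 and -0.26).

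Several chamber genes differed by less in late HF than in controls, and none of these contrasts passed. Most of those given were chosen for a small p of a negative contrast. Among genes called in late HF, the difference was larger there than in controls for 150 of the 218 higher and 59 of the 101 lower ones. Those genes were chosen by their late HF values. The chamber difference of MYL2 was -3.0 in late HF, against -6.84 in controls (3.84, SE 1.02, adjusted p = 0.528 for the contrast). MYL2 averaged 10.79 ± 0.28 (SD, n = 2) in RA late HF, against 7.31 ± 1.81 (SD, n = 3) in RA controls. For MYL7 the contrast was -1.0, SE 0.22, adjusted p = 0.374, with RV at 12.81 ± 0.21 (SD, n = 3) in late HF, against 11.99 ± 0.31 (SD, n = 3) in controls. CRYM, a thyroid hormone binding protein, differed by 1.69 ± 0.39 (SE, adjusted p = 0.0267) in late HF, against 4.23 in controls (-2.54, SE 0.52, adjusted p = 0.327 for the contrast). Its RV level was 8.09 ± 0.30 (SD, n = 3) in late HF, against 6.29 ± 0.27 (SD, n = 3) in controls. MYL9 differed by 0.92 in late HF, against 1.98 in controls (-1.06, SE 0.26, adjusted p = 0.489 for the contrast), and RAB9B by 0.75, against 1.73 (-0.97, SE 0.22, adjusted p = 0.44). FCRLA, also among the genes of smallest p with a negative contrast (-0.71, SE 0.17, adjusted p = 0.489), differed by -0.53 in late HF, against 0.18 in controls. Other FCRLA probe sets differed by 0.28 and -0.25 in late HF. In late HF itself the call was lost for CRYM without RA 2, RV 1, RV 2 or RV 3 (adjusted p up to 0.123).

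Several class II genes had a positive contrast between late HF and controls, again without passing. In controls 0 of the 15 genes of the class II list were higher in RA (against 3.26% of all genes) and 2 were lower (against 2.11%), namely DLA-DMA and DLA-DMB, the chains of the DM molecule that loads peptides onto class II. DLA-DMA differed by 0.69 in late HF (adjusted p = 0.12), against -1.01 in controls (adjusted p = 0.00968), and DLA-DMB by 0.03, against -0.63 (adjusted p = 0.928 and 0.0264). The gene annotated HLA-DRB1 differed by 1.26, against -0.71, and DLA-DQB1 by 1.79, against -0.26. The contrast of late HF against controls was 1.70, SE 0.32, adjusted p = 0.327 for DLA-DMA, 1.98, SE 0.44, adjusted p = 0.394 for the gene annotated HLA-DRB1 and 2.05, SE 0.47, adjusted p = 0.402 for DLA-DQB1. DLA-DQB1 averaged 8.69 ± 0.54 (SD, n = 2) in RA late HF, against 6.17 ± 0.42 (SD, n = 3) in RA controls, while RV was at 6.90 ± 0.36 in late HF, against 6.43 ± 0.16 in controls (SD, n = 3 each). CLEC12A gave 2.12, SE 0.48, adjusted p = 0.394. PUS3, a pseudouridine synthase (0.72, SE 0.15, adjusted p = 0.327), TAMM41, of cardiolipin synthesis (0.63, SE 0.13, adjusted p = 0.327), and ULK2, an autophagy kinase (0.62, SE 0.14, adjusted p = 0.374), completed the genes of smallest p. Each of these 3 was above 0 in late HF and below 0 in controls. The number of probe sets past the threshold for this contrast was 2, neither with a symbol. It was 0 of 25752 with the replicate number as a block (1717 at an unadjusted p under 0.05, by limma) and 194 without RA 2.

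Against early HF, no gene or probe set passed for the difference in chamber difference (0% of genes, with 645 genes or 5.87% at an unadjusted p under 0.05, by limma). In early HF 564 genes were higher in RA (5.13%) and 397 lower (3.61%), together 8.75%. Of the 218 genes higher in late HF, 155 (71.1%) were higher in early HF, which is 27.5% of the early genes, and of the 101 lower, 67 (66.3%) were lower, which is 16.9% of the early genes. In all 3 stages 100 genes were higher and 57 lower. The shares of all genes higher were 1.98% in late HF, 3.26% in controls and 5.13% in early HF. Those lower were 0.919%, 2.11% and 3.61%. Calls of all stages share 1 estimate of the spread per gene. Class II genes were also higher in early HF, with DLA-DQB1 at 1.79 in late HF, against 1.53 in early HF, and DLA-DRA at 1.68, against 1.94. Matrix genes had a median of 0.53 in late HF (0.19 without RA 1 and 0.81 without RA 2), against 1.14 in early HF, and FN1, which encodes fibronectin, gave -2.15, SE 0.50, adjusted p = 0.596 and FBN1, fibrillin 1, -1.53, SE 0.38, adjusted p = 0.629. TOP2A, a topoisomerase of dividing cells, gave -1.74, SE 0.33, adjusted p = 0.337, LOC477072 -0.71, SE 0.16, adjusted p = 0.562 and KLHL5 -0.93, SE 0.24, adjusted p = 0.629. In the other direction the genes of smallest p were USP28 (0.96, SE 0.17, adjusted p = 0.254), LMO7 (1.33, SE 0.25, adjusted p = 0.337), TUBA8 (0.79, SE 0.17, adjusted p = 0.477), STXBP6 (1.03, SE 0.23, adjusted p = 0.491) and HINT3 (0.91, SE 0.21, adjusted p = 0.596). Without RV early HF 2, 12 probe sets passed.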

How the data were processed

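Total RNA of 18 canine RA and RV samples was measured on Affymetrix arrays. The authors deposited log2 signals per probe set, made with MAS5 per the submitters' processing notes, with no version, scale or target given in the sources used here. The unit was read from the values, and the values were used as deposited. From 43035 probe sets, 111 controls were removed, then the 40% of lowest mean signal (limit 5.31), which left 25752. Group means under this limit lie near background, so the sizes of differences against them are uncertain. In late HF this held for the lower group of 11 genes called higher and 9 called lower in RA. HSD17B13 and P2RY14 in RV and IRX5 in RA are among these. POSTN, which did not pass, also had its RV mean under the limit. Symbols came from the platform annotation (29254 probe sets with 1 symbol, 439 with several, 13231 with none), and the probe set of highest mean signal stood for a gene. Other probe sets are given for some genes only. For further ones, among them MYL4, NR2F2, SPARC, DPT, ACAT1, UQCRC1, LMO3 and CD59, another probe set had the same sign but did not pass.

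A model with 1 mean for each of 6 groups was fitted to 17 arrays with limma 3.58.1 in R 4.3.3 (11 residual degrees of freedom, trended prior). Tests were two-sided, adjusted by Benjamini-Hochberg over all probe sets, threshold 0.05. The contrasts were RA minus RV in late HF, and that difference minus the one in controls or early HF. Leaving out the library labelled RA late HF 3, the 40 gene lists (759 genes tested) and the named genes were chosen with earlier results of these data known. Named were the 15 largest differences in each direction among genes past the threshold, up to 6 members per list, the genes of smallest p for the contrasts between stages, and a set of cardiac genes. Among these, NPPA, SLN and HEY2 were not named singly by any probe set, and HCN4, KCNJ2, KCNJ3, KCNJ5 and TBX5 fell below the signal filter. Same-numbered RA and RV arrays were compared by their deviations from the group means. They correlated at 0.36, 0.24 and 0.42 in controls and 0.17, 0.26 and 0.15 in early HF, and other-numbered ones at 0.052 at most. The numbers may therefore pair these arrays, though no label names an animal. Deviations within a group sum to 0, so low values of other-numbered arrays partly follow from high ones of same-numbered arrays. In late HF the values of same-numbered arrays were -0.052 and -0.41. With 2 RA arrays, whose deviations mirror each other, pairing there could not be settled. The fit reported has no block, so its control and early HF calls do not use this possible pairing. With the block, 1621 probe sets passed in controls and 2480 in early HF, against 1458 and 2316 without it. Alternatives were other filters, normalizations, priors, array weights, a replicate block and leaving out single arrays. The fit was tested on simulated data. No array was a copy of another (at least 97.5% of values differed in every pair). Figures were drawn with Python 3.11.15 and matplotlib 3.10.9.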

Additional observations from a re-analysis of the deposited data

Results flagged for a closer look

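For 2 probe sets without a gene symbol, the chamber difference in late HF differed from that in controls past the threshold, and neither call held with the replicate number as a block or without any 1 of RA control 2, RV control 1, 2 or 3, RA late HF 1 or RV late HF 2. For the first, which averaged 5.41 in RA and 5.46 in RV in late HF, the contrast was -1.13 (SE 0.16, adjusted p = 0.024), with a chamber difference of -0.06 in late HF, against 1.07 in controls. For the other, which averaged 7.54 in RA and 8.08 in RV in late HF, it was 2.13 (SE 0.29, adjusted p = 0.024), with -0.55 in late HF, against -2.68 in controls.

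The library labelled RA late HF 3, which enters no comparison, had high signals of genes that are lower in RA. They were 14.17 for MYL2, 13.89 for MYL3, 8.10 for IRX5, 12.92 for FHL2, 8.29 for UCP3 and 8.23 for PLPPR5, each above every RA control array.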

How the results depend on the processing

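The 811 probe sets that passed between the chambers in late HF became 7 with the library labelled RA late HF 3, 282 with only the groups compared, 287 with array weights, 534 without probe sets that may cross-hybridise and 519 with the replicate block. With single arrays left out they ranged from 145 (without RA 1) to 3161 (without RA 2). Fewer samples or probe sets entered some of these fits, and otherwise the cause was not tested. Of 76 named genes past the threshold, 75 lost their call with that library, 43 with array weights and 24 with the replicate block. None changed sign under any alternative, which was largely fixed in advance. Filters and priors leave a difference as it is, and leaving out a single array cannot flip it where RA and RV do not overlap. By an addition made after seeing the data, with quantile normalization or arrays centred on their median, the ribosomal list had 46 and 49 of 50 genes above 0, and the respiratory list 4 and 11 of 53, with 5 and 1 lower past the threshold.

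The late against control contrast gave 2 probe sets, 1 with array weights, 1 with the lowest 60% by signal left out, 0 with the replicate block, and 0 to 194 with single arrays left out (194 without RA late HF 2). The late against early contrast gave 0, and 0 to 12 with single arrays left out. In controls the count was 1458, 748 with the library labelled RA late HF 3, 2773 with array weights, and 764 (without RV control 2) to 1184 with single arrays left out. In early HF it was 2316, 1454 with that library, 1478 with only the groups compared, 1489 without probe sets that may cross-hybridise, and 1416 (without RV early HF 3) to 2030. The block moved no other count of calls by over 1.5 times. With 2 RA arrays, of which RA 1 lies further from RV, the size of single differences is poorly fixed, and signals near 5.31 lie near background.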

Other observations

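Genes outside the lists, chosen after their values were seen, were among those that passed with any 1 of the 5 arrays left out. SCG5, a chaperone of the prohormone convertase of secretory granules, had 8.71 and 8.59 in the RA arrays, against 7.40, 6.73 and 6.79 in the RV arrays (1.68, SE 0.21, adjusted p = 0.000234). RAB6A, a GTPase of Golgi transport, had 10.86 and 10.91 in the RA arrays, against 9.64, 9.63 and 9.57 in the RV arrays (1.27, SE 0.16, adjusted p = 0.000343). VNN1, the pantetheinase vanin 1, had 9.12 and 8.78 in the RA arrays, against 6.88, 7.19 and 6.92 in the RV arrays (1.95, SE 0.22, adjusted p = 0.000111). MTMR7, a phosphoinositide phosphatase, had 7.35 and 7.91 in the RA arrays, against 5.74, 5.66 and 5.83 in the RV arrays (1.89, SE 0.17, adjusted p = 1.92e-05). P2RY14, a receptor for UDP sugars, had 6.97 and 6.42 in the RA arrays, against 5.52, 5.27 and 5.11 in the RV arrays (1.40, SE 0.20, adjusted p = 0.000942). For each of these 5 genes both RA arrays were above all RV arrays, as for 17.4% of all genes tested.

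RPL3L, the ribosomal protein paralog of striated muscle, was lower in RA, with 9.86 and 9.72 in the RA arrays, against 10.47, 10.56 and 10.65 in the RV arrays (-0.77, SE 0.12, adjusted p = 0.00233), while 48 of the 50 cytosolic ribosomal genes tested had a positive difference (against 47% of all genes). ADSS1, the muscle adenylosuccinate synthase, had 8.69 and 8.78 in the RA arrays, against 10.01, 10.04 and 10.38 in the RV arrays (-1.41, SE 0.21, adjusted p = 0.00159). PKIA, an inhibitor of cyclic AMP-dependent kinase, had 10.35 and 10.15 in the RA arrays, against 11.20, 11.69 and 11.16 in the RV arrays (-1.10, SE 0.17, adjusted p = 0.00227). BCKDHB, a subunit of branched-chain ketoacid dehydrogenase, had 7.86 and 7.40 in the RA arrays, against 8.58, 8.97 and 9.07 in the RV arrays (-1.24, SE 0.20, adjusted p = 0.00282). These 4 genes were lower in both RA arrays than in every RV array, as were 17.4% of all genes tested, and passed with any 1 of the 5 arrays left out.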
